A study of Mus musculus with 6 samples.

Results

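The microRNAs (miRNAs) mmu-miR-146a-5p, mmu-miR-146b-5p and mmu-miR-155-5p, the guide arms of 3 hairpins known to respond to NF-kB, were followed in primary dermal fibroblasts with and without a constitutively active Nrf2. They are 3 of the 1907 mature miRNA names in the deposited count files, taken by name, with earlier results of these data known. All 3 had enough counts to be tested, as did 697 miRNAs in all. The fibroblasts came from the skin of newborn mice of mixed C57Bl/6 and FVB/N background and were used at passage 1 after 6 days of growth. All 6 mice carried Col1a2Cre, a Cre driven from a collagen I promoter of fibroblasts and other mesenchymal cells. In 3 of them (Col1a2Cre-caNrf2, here caNrf2) it was joined by a constitutively active mutant of Nrf2, and 3 (Col1a2Cre-wt, here ctrl) had the Cre alone. Each mouse gave 1 small RNA library of 10443268 to 28237159 counts. These counts hold no mRNA and so give no check of the transgene, of NF-kB itself or of its target genes.

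NF-kB is the transcription factor family that Toll-like receptors, interleukin-1 and tumour necrosis factor activate in inflammation. It raises transcription of the primary transcripts of miR-146a and miR-155. miR-146a and miR-146b repress the adaptor Traf6 and the kinase Irak1, which lie upstream of NF-kB, and are known as a brake on the pathway. miR-155 represses Socs1 and the phosphatase Inpp5d and is known for prolonging inflammatory signalling in macrophages and lymphocytes. Nrf2 drives antioxidant and detoxification genes, and in many cells its activity and that of NF-kB restrain each other.

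The mature sequences are shown because the 3 miRNAs fall into 2 seed groups (RefSeq, GRCm38.p6, 5′ to 3′, seed bases 2 to 8 in capitals).

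miR-146a-5p: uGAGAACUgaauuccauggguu

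miR-146b-5p: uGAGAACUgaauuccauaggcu

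miR-155-5p: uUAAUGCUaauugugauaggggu

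miR-146a-5p and miR-146b-5p share the seed GAGAACU, which no other of the 1679 mature mouse names in that table carries. miR-7217-3p matches it over bases 2 to 7. The seed UAAUGCU of miR-155-5p belongs to that miRNA alone. The miR-146 pair is identical at 20 of 22 positions and differs by G18A and U21C (the miR-146a base first, counted from 1 at the 5′ end). Both differences lie in the 3′ part, behind 17 shared bases, as the capitals show here.

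miR-146a-5p: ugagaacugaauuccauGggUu

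miR-146b-5p: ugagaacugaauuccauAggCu

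A read that ends before position 18 cannot be assigned to either, and a read with 1 sequencing error at these bases loses part of the distinction. The sources used here do not say how such reads were counted. miR-155-5p has no such relative, its nearest mature name, miR-26b-5p, being 8 edits away.

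The hairpins lie on different chromosomes and have different surroundings (mm10, which is GRCm38; GENCODE M21). They are printed with both mature arms in capitals, the 5p arm first, since the arms are compared further on.

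Mir146: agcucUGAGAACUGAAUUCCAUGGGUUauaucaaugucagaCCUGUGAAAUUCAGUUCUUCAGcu

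Mir146b: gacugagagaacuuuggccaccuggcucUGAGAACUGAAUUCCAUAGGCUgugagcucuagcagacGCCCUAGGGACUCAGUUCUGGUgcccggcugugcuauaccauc

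Mir155: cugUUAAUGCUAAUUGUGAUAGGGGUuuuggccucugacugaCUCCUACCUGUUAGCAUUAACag

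Mir146, the miR-146a precursor, occupies chr11:43374397-43374461 on the minus strand and overlaps no other annotated gene. The nearest gene is the long noncoding RNA Gm12148, 11021 bases away on the other strand. Mir146b occupies chr19:46342762-46342870 on the plus strand in an intron of the protein-coding gene Mfsd13a. Nfkb2, which encodes the NF-kB subunit p100, ends 30377 bases before it on the same strand. Mir155 occupies chr16:84714140-84714204 on the plus strand in an exon of both overlapping transcripts of its noncoding host gene Mir155hg.

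The comparison asked whether active Nrf2 went with other levels of these inflammatory miRNAs. miR-146a-5p rose 1.84-fold in caNrf2 fibroblasts, from 19.9 ± 1.58 to 36.5 ± 4.0 CPM (counts per 1000000 library counts after TMM scaling; mean ± SD, n = 3 per group). Its seed partner miR-146b-5p, at 60.9 ± 14.6 and 72.8 ± 9.71 CPM, did not pass the test. Nor did miR-155-5p, the most abundant of the 3, at 171 ± 30.9 and 176 ± 10.4 CPM. One of the 3 was thus called, and 1 of the 3 had groups that did not overlap. Over all 697 tested miRNAs 25.7% were called (14.1% higher, 11.6% lower; adjusted p under 0.05) and 41.6% had groups without overlap (23.7% higher, 17.9% lower). A count of 1 in 3 is near that background and is no result about the trio as a set. In RNA from a whole culture, more cells of a type and more of an miRNA per cell cannot be told apart.

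The order of the levels was the same in 6 of 6 libraries, with miR-155-5p above miR-146b-5p and miR-146b-5p above miR-146a-5p. Mature miRNAs are of nearly equal length, 22 or 23 bases here, so that CPM can be set side by side between them, although ligation and amplification can favour one sequence over another. By mean CPM the 3 ranked 161, 221 and 291 among the tested miRNAs. Together they held 0.0250% ± 0.0039 of control and 0.0288% ± 0.0021 of caNrf2 counts. None of them was an abundant fibroblast miRNA.

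mmu-miR-146a-5p had 20.6, 18.1 and 20.98 CPM in control libraries 1, 2 and 3 and 37.1, 40.2 and 32.3 CPM in caNrf2 libraries 1, 2 and 3. Every caNrf2 library lay above every control. The exact Poisson 95% intervals of the highest control and the lowest caNrf2 library, 19.0 to 23.1 and 30.2 to 34.5 CPM, did not touch. Such intervals cover counting error only, and no molecular identifiers are named in the sources used here. The counts behind these values were 214 to 425 in the controls and 529 to 968 in the caNrf2 libraries. The coefficient of variation between libraries was 7.96% in controls and 10.9% in caNrf2, against 5.89% and 3.67% from counting alone. The log2 fold change was 0.88 ± 0.14 (SE; 95% interval of the fold 1.47 to 2.30; edgeR quasi-likelihood adjusted p = 0.00167). miR-146a-5p was called in all 14 alternative analyses, with log2 fold changes from 0.78 to 0.95 and adjusted p no higher than 0.00823. It held rank 58 of 697 by log2 fold change. Among the 371 tested miRNAs whose mean reached 10 CPM, 16 had a log2 fold change as high or higher, itself included.

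mmu-miR-146b-5p had 76.6, 58.4 and 47.8 CPM in control libraries 1, 2 and 3 and 76.7, 61.7 and 79.9 CPM in caNrf2 libraries 1, 2 and 3. The groups overlapped: control library 1 was as high as caNrf2 library 1, and caNrf2 library 2 was close to control library 2. The spread between controls, 23.9%, stood beside 3.33% from counting 795 to 968 reads. The log2 fold change was 0.26 ± 0.18 (SE; edgeR adjusted p = 0.308), and its 95% interval, 0.911- to 1.57-fold, includes no change. Without control library 1 the log2 fold change was 0.45 (edgeR adjusted p = 0.0605), and without control library 3 it was 0.11 (0.723). miR-146b-5p was called in none of the 14 alternatives.

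mmu-miR-155-5p had 171, 202 and 140 CPM in control libraries 1, 2 and 3 and 183, 164 and 182 CPM in caNrf2 libraries 1, 2 and 3. All 3 caNrf2 values lay inside the range of the controls. Its counts were 1774 to 5084 per library. The coefficient of variation was 18.1% in controls and 5.91% in caNrf2, against 2.01% and 1.67% from counting alone. The log2 fold change was 0.05 ± 0.13 (SE; edgeR adjusted p = 0.827), with a 95% interval of 0.845- to 1.26-fold. A fold of the size seen for miR-146a-5p lies outside that interval. Without control library 3 the log2 fold change was -0.081 and without control library 2 it was 0.17, with no call in either.

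**Figure D1:**
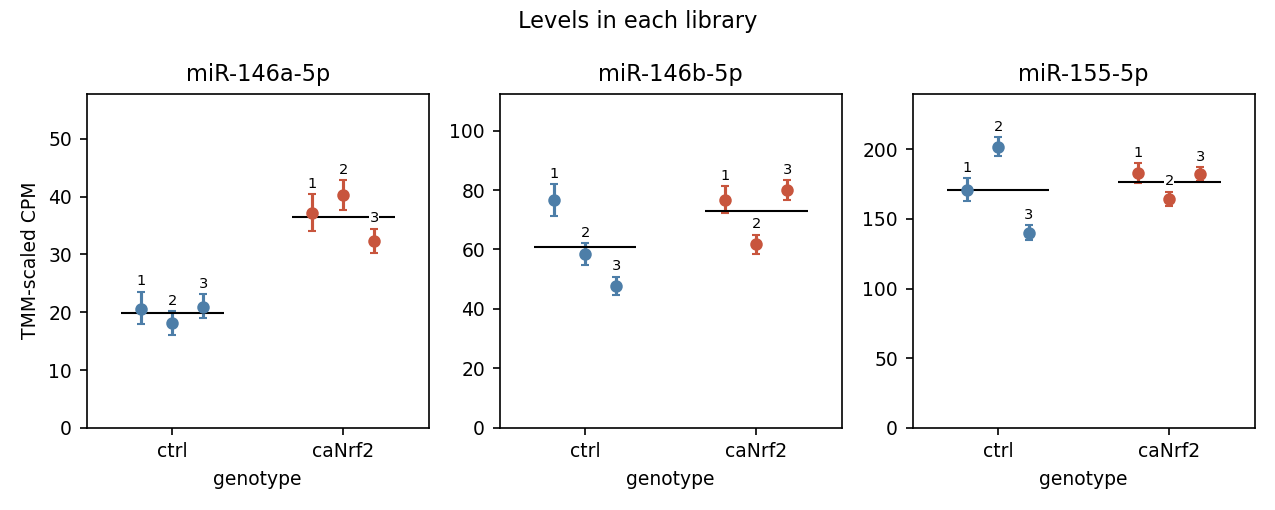
TMM-scaled CPM (y axes, from 0, a different scale in each panel) of the 3 miRNAs in each ctrl and caNrf2 library (x axis). Points are libraries labelled by replicate number, bars are exact Poisson 95% intervals for counting error and lines are group means. The 3 caNrf2 points of miR-146a-5p, at 32.3 to 40.2 CPM, stand above all controls, while the groups overlap for miR-146b-5p and miR-155-5p.

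Whether miR-146a-5p changed more than the other members was asked of count ratios within each library, which need no scaling. miR-146a-5p counts were 0.269, 0.310 and 0.439 of miR-146b-5p counts in control libraries 1, 2 and 3 and 0.484, 0.651 and 0.404 of them in caNrf2 libraries 1, 2 and 3. Control library 3 lay above caNrf2 library 3, so the groups overlapped. The mean log2 ratio was 0.60 higher in caNrf2 (two-sided exact permutation p = 0.2 over 20 assignments, 0.3 adjusted over the 3 pairs; the smallest p that 3 against 3 libraries can give is 0.1). Thus miR-146a-5p was called and miR-146b-5p was not, but a difference between their changes was not shown. This permutation test could not have passed 0.05 with 3 libraries per group. The share of miR-146a-5p in the pair was 25.1% ± 4.82 in controls and 33.6% ± 5.41 in caNrf2. With both summed, so that reads swapped between them do not matter, the pair stood at 68.8 to 97.2 CPM in controls and 102 to 114 CPM in caNrf2.

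Against miR-155-5p, the ratio of miR-146a-5p was 0.121, 0.0895 and 0.150 in control libraries 1, 2 and 3 and 0.203, 0.245 and 0.177 in caNrf2 libraries 1, 2 and 3. Here the groups did not overlap, and the mean log2 ratio was 0.82 higher in caNrf2 (two-sided exact permutation p = 0.1, the smallest possible; 0.3 adjusted over the 3 pairs). The ratio of miR-146b-5p to miR-155-5p had a mean of 0.354 in controls and 0.411 in caNrf2 (geometric means) and overlapping groups (two-sided exact permutation p = 0.4). miR-155-5p made up 63.7% to 72.5% of the counts of the 3 miRNAs in controls and 61.6% to 61.9% in caNrf2.

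**Figure D2:**
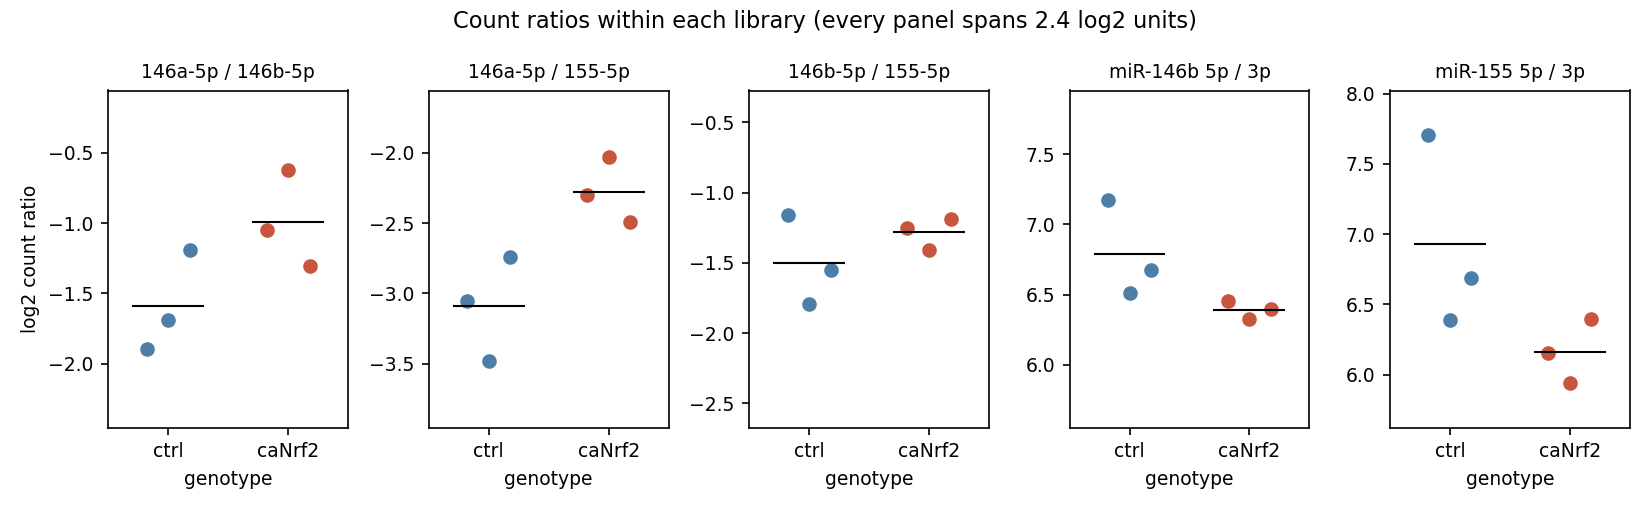
Log2 ratios of counts (y axes) within each ctrl and caNrf2 library (x axis) for the 3 pairs of members and for the 5p over the 3p arm of miR-146b and miR-155. Points are libraries in replicate order and lines are group means. The groups are apart for miR-146a-5p over miR-155-5p and for the miR-146b arms, and overlap in the other 3 panels.

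The 3p arms, the strands of each hairpin that are mostly discarded, were rare throughout. miR-146a-3p had 1 count, in caNrf2 library 2, against 3335 counts of the 5p arm. It was 0.0300% of the hairpin's counts over all libraries (exact Clopper-Pearson 95% interval 0.000759% to 0.167%). In the 5 libraries at 0, 3 counts of the library total set an upper limit of 0.106 to 0.287 per 1000000 counts, before TMM scaling. Its change could not be tested at this depth.

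miR-146b-3p had 0.482, 0.609 and 0.444 CPM in control libraries 1, 2 and 3 and 0.842, 0.748 and 0.931 CPM in caNrf2 libraries 1, 2 and 3. The groups did not overlap, but these values rest on 5 to 26 counts, and the log2 fold change of 0.72 ± 0.31 (SE) did not pass (edgeR adjusted p = 0.120). Its 5p arm was 145, 91.4 and 102 times as frequent in control libraries 1, 2 and 3 and 87.6, 80.4 and 84.3 times in caNrf2 libraries 1, 2 and 3 (0.5 added to both counts). The mean log2 ratio was 0.39 lower in caNrf2, a difference of -0.39 with no overlap (two-sided exact permutation p = 0.1, the smallest possible; 0.2 adjusted over the 2 hairpins).

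miR-155-3p had 0.770, 2.37 and 1.33 CPM in control libraries 1, 2 and 3 and 2.52, 2.66 and 2.15 CPM in caNrf2 libraries 1, 2 and 3. Control library 2 lay among the caNrf2 libraries, and the log2 fold change of 0.64 ± 0.30 (SE) did not pass (edgeR adjusted p = 0.147). Without control library 2 it was 1.10 and was called (edgeR adjusted p = 0.0214), and this was the only one of 13 alternatives in which it was. The arm ratio of miR-155 went from a geometric mean of 122 to 71.6 with overlapping groups (two-sided exact permutation p = 0.2, 0.2 adjusted), control library 1, with 8 counts of the 3p arm, being the highest at 209. For both hairpins the 3p arm had a higher log2 fold change than its 5p arm. The permutation test of the arm ratios could not pass 0.05 with 3 libraries per group. It therefore does not decide whether the arms differed in their change.

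Other miRNAs of the NF-kB pathway were read as 2 lists. Of 11 tested miRNAs reported to be induced by NF-kB or Toll-like receptors, 1 rose and 1 fell, against 25.7% called over all miRNAs. Their median log2 fold change was -0.01, beside 0.03 for all tested. The twelfth listed, miR-9-3p, had too few counts to be tested. miR-9-5p, which represses Nfkb1 and is known from neural cells, had 5.39, 8.4 and 8.94 CPM in control libraries 1, 2 and 3 and 11.6, 13.4 and 12.0 CPM in caNrf2 libraries 1, 2 and 3. It rose 1.61-fold (edgeR adjusted p = 0.0219), but leaving out control library 1 (adjusted p = 0.0613) or caNrf2 library 1, 2 or 3 (0.0527, 0.0687 and 0.0606) ended the call. miR-30b-5p fell from 683 ± 70.7 to 531 ± 36.1 CPM (edgeR adjusted p = 0.0164), which no longer passed with control library 1 (adjusted p = 0.0605) or 3 (0.0753) or caNrf2 library 2 (0.0511) or 3 (0.0586) left out.

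The most abundant of that list, miR-21a-5p, is raised in activated and fibrotic fibroblasts. It lay between 93695 and 119559 CPM with overlapping groups (edgeR adjusted p = 0.861). miR-125a-5p and miR-99b-5p, which come from 1 cluster with let-7e-5p, had log2 fold changes of -0.01 and 0.09 and did not pass. Neither did miR-132-3p, a miRNA of early Toll-like receptor responses, at 221 ± 18.3 and 264 ± 21.3 CPM (edgeR adjusted p = 0.0779), although its groups did not overlap.

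Of 10 tested miRNAs reported to repress genes of the NF-kB pathway, 4 fell and 1 rose, against 11.6% lower and 14.1% higher over all miRNAs. Most of the 10 are abundant. In a separate fit, with its own scaling and adjustment, of only the 371 averaging 10 CPM or more, 71 were called lower and 60 higher. The part of abundance in the calls among the 10 was not tested. The median log2 fold change of the 10 was -0.34, and 2 of the 10 had a positive value. miR-181b-5p, a repressor of the importin that carries NF-kB into the nucleus, fell from 3719 ± 195 to 2606 ± 111 CPM (edgeR adjusted p = 9.45e-04). miR-199a-5p, reported to target the kinase IKK-beta and a marker of mesenchymal cells, fell by 0.51 on the log2 scale (0.00269), and miR-10a-5p, reported to act on NF-kB signalling in endothelium, by 0.73 (0.00941). miR-125b-5p, which is repressed in macrophages on Toll-like receptor stimulation, fell by 0.38 on the log2 scale (edgeR adjusted p = 0.0299), which did not pass with control library 2 left out (log2 fold change -0.24, adjusted p = 0.0656), nor with caNrf2 library 1, 2 or 3 left out (0.0595 to 0.0689). The 1 that rose, miR-223-3p, is a myeloid miRNA and is given with the leukocyte miRNAs below.

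**Figure D3:**
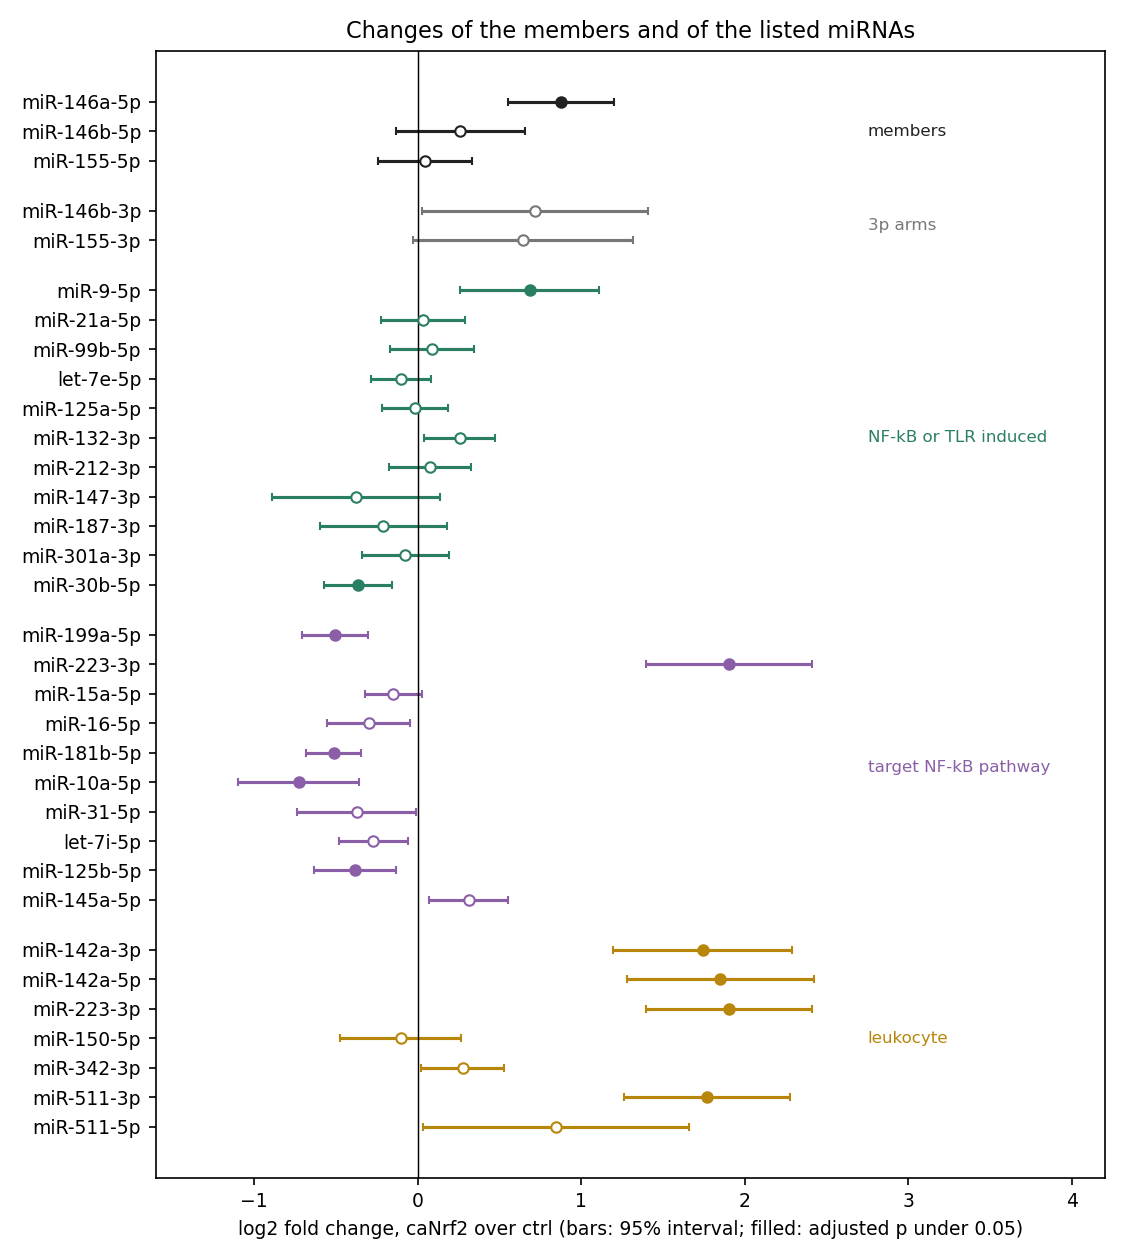
Log2 fold changes of caNrf2 over ctrl (x axis) with 95% intervals for the 3 members, their testable 3p arms and 3 lists of miRNAs (y axis, lists in colour). Filled points passed an adjusted p under 0.05 and open points did not. miR-146a-5p at 0.88 is the only filled member, 2 of 11 NF-kB or Toll-like receptor (TLR) induced miRNAs are filled, and 4 of 7 leukocyte miRNAs are filled at 1.74 to 1.90; miR-223-3p stands in 2 lists.

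Since miR-146a and miR-155 are also abundant in leukocytes, the markers of other cells were read beside them. The cultures had the miRNAs of fibroblasts: 8 mesenchymal miRNAs, led by miR-22-3p, miR-21a-5p and miR-143-3p, summed to 424536 to 435172 CPM in controls and 456143 to 492127 CPM in caNrf2. Of these 8, 1 rose and 3 fell (miR-199a-5p, miR-199b-5p and miR-10b-5p), against 14.1% higher and 11.6% lower over all miRNAs. The 1 that rose, miR-22-3p, lost its call in 6 of 13 alternatives. Of those not called, miR-143-3p (edgeR adjusted p = 0.0512) was called higher in 6 of 13 alternatives and miR-145a-5p in 2 of 14. miR-214-3p was called lower in 1 of 14, and miR-21a-5p was called in none. Leukocyte miRNAs were present at low levels, and those called moved with the genotype in the direction of miR-146a-5p. The 8 listed, none of them at 0 in every library, summed to 209 to 255 CPM in controls and 371 to 437 CPM in caNrf2. In controls miR-342-3p, which was not called, held 185 of the mean sum of 239 CPM. The largest change in CPM within the list was that of miR-142a-5p, from a mean of 39.6 to 143. Of the 7 tested, 4 rose and none fell, against 14.1% higher over all miRNAs, and their median log2 fold change was 1.74.

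miR-142a-5p, found in all blood cell lineages, had 23.9, 43.7 and 51.2 CPM in control libraries 1, 2 and 3 and 120, 181 and 129 CPM in caNrf2 libraries 1, 2 and 3. miR-223-3p of granulocytes and macrophages had 2.89 to 4.64 CPM in controls and 12.9 to 19.6 CPM in caNrf2. miR-511-3p, from an intron of the macrophage gene Mrc1, had 0.674 to 1.22 and 3.01 to 3.91 CPM. In each of these the groups were apart, and caNrf2 library 2, the highest for miR-146a-5p, was also the highest. The order among controls differed: these miRNAs were lowest in control library 1, and miR-146a-5p was lowest in control library 2 (18.1 CPM). The rises were 3.60-, 3.74- and 3.41-fold (edgeR adjusted p = 7.25e-04, 2.90e-04 and 4.80e-04), larger than the 1.84-fold of miR-146a-5p.

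miR-142a-3p rose 3.35-fold (edgeR adjusted p = 7.90e-04). miR-223-5p, not tested, had 5 counts over the controls and 37 over the caNrf2 libraries, and was at 0 in control library 1. The lymphocyte miRNA miR-150-5p stayed at 2.89 to 3.41 and 2.67 to 3.26 CPM (log2 fold change -0.10, edgeR adjusted p = 0.693), and neither miR-342-3p, at 185 ± 9.61 and 224 ± 34.2 CPM, nor miR-511-5p, at 0.489 ± 0.273 and 0.950 ± 0.107 CPM, passed (edgeR adjusted p = 0.104 and 0.120). In controls miR-146a-5p, at 19.9 CPM, stood above miR-142a-3p at 5.71 CPM and below miR-142a-5p at 39.6 CPM. The part of leukocyte RNA in the rise of miR-146a-5p was not tested. miR-155-5p, also abundant in activated leukocytes, was not called, and the part of leukocyte RNA in its level was not tested either.

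**Figure D4:**
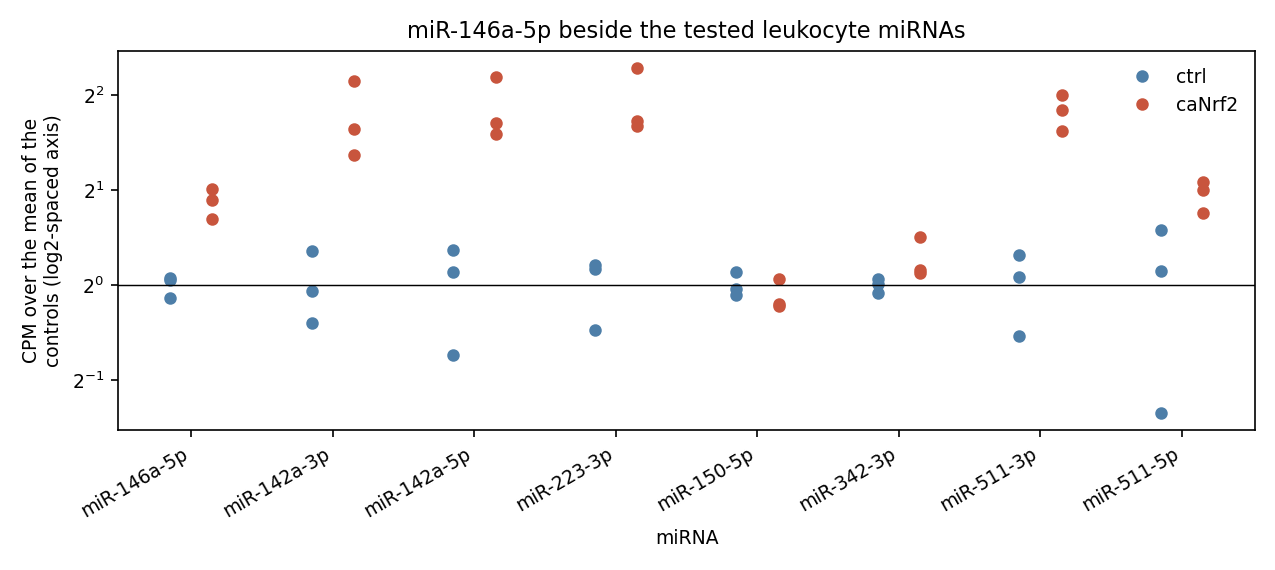
CPM of miR-146a-5p and of the 7 tested leukocyte miRNAs (x axis) in each library, divided by the mean of the controls (y axis, log2-spaced). Points are ctrl and caNrf2 libraries. The caNrf2 points of miR-142a, miR-223-3p and miR-511-3p lie farther above the controls than those of miR-146a-5p, and those of miR-150-5p lie among the controls or just below them.

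Keratinocyte, endothelial and red cell miRNAs were also present. The 7 keratinocyte miRNAs, among them miR-205-5p at 752 CPM or more in every library, summed to 1035 to 1865 CPM in controls and 1600 to 2121 CPM in caNrf2, overlapping, and none was called. All 7 had positive log2 fold changes, with a median of 0.36. miR-205-5p, at 1013 ± 333 and 1475 ± 151 CPM (edgeR adjusted p = 0.0590), was called higher in 6 of 14 alternatives, DESeq2, limma-voom and the replicate block among them. The endothelial pair miR-126a-3p and miR-126a-5p summed to 116 to 165 and 147 to 170 CPM, with no call. Of 4 erythroid miRNAs 1 rose, against 14.1% higher over all miRNAs. It was miR-486a-5p, which muscle also expresses (edgeR adjusted p = 0.00469). The median log2 fold change of the 4 was -0.27. Their sum, 353 to 412 CPM in controls and 495 to 589 CPM in caNrf2, is nearly all miR-486a-5p (386 CPM in controls). The red cell miRNAs miR-144-3p and miR-144-5p, at 0.924 and 1.17 CPM in controls and 0.456 and 0.426 CPM in caNrf2, did not pass (edgeR adjusted p = 0.0873 and 0.0938), and miR-144-5p was called lower in 3 of 13 alternatives. miR-451a, at 2.70 and 3.84 CPM, did not pass either (0.114). Their part in the miR-146a-5p change was not tested either.

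The miRNAs whose log2 CPM followed each member most closely over the 6 libraries were taken from those averaging 10 CPM or more (370 for each member). For miR-146a-5p they were miR-22-3p (Pearson r = 0.995), the most abundant miRNA of these cells, miR-138-5p (0.986) and miR-29c-3p (0.984), a repressor of collagen genes. All 3 were themselves called higher, 1.24-, 11- and 1.96-fold, and a correlation over 2 separated groups mostly restates that. The miR-22-3p call was lost with RLE size factors (edgeR adjusted p = 0.0703) and on leaving out control library 2 or 3 or caNrf2 library 1, 2 or 3 (0.0675 to 0.115).

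For miR-155-5p they were miR-99b-5p (r = 0.962), which is also on the Toll-like receptor list, miR-191-3p (0.951) and miR-501-3p (0.928), none of them called. miR-99b-5p had its highest value, 7615 CPM, in control library 2 and its lowest, 5432 CPM, in control library 3, as did miR-155-5p. For miR-146b-5p they were miR-7688-5p (r = 0.942), let-7a-5p (0.844) and miR-93-3p (0.836), again with no call. Between members, r was 0.42 for miR-146a-5p with miR-146b-5p, 0.00 for miR-146a-5p with miR-155-5p and 0.55 for miR-146b-5p with miR-155-5p. These values rest on 6 libraries, in each of which all miRNAs share 1 depth and 1 scaling factor, and the closest of 370 will be high in any case.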

How the data were processed

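The deposited files hold, for each library, whole-number read counts by mature miRNA name, with no normalization by the authors recorded. The submitters' processing notes list the mm10 build and, with no role or settings, featureCounts, Bowtie, cutadapt, CASAVA 1.8 and edgeR. Neither the miRNA annotation release nor the handling of reads matching several precursors is given in the sources used here. All 6 files carry the same run and lane in their headers, and labels say that each library came from a different mouse.

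Groups and replicate numbers came from the titles. Library pairs of 1 group differed by far more than counting noise (chi-square per degree of freedom at least 101). The test was the quasi-likelihood test of edgeR 4.0.16 (R 4.3.3; filterByExpr at a minimum count of 10, TMM factors of 0.984 to 1.04, glmQLFTest after glmQLFit, no covariate). Benjamini-Hochberg adjustment ran over all 697 tested miRNAs, with a threshold of 0.05. SEs came from the F statistic. Tested miRNAs held 99.99% of the counts. Ratios were compared by exact permutation over 20 assignments.

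As alternatives, scaling used library totals, RLE size factors or all miRNAs but the top 5. DESeq2 1.42.0 and limma-voom (limma 3.58.1) replaced edgeR. The filter was dropped or set to a mean of 10 CPM. A replicate block was added, each library was left out in turn, and ratios took other pseudocounts. The ratios to miR-155-5p were added after seeing the data. The members, lists and tests were chosen with earlier results of these data known. The rule named the members, their 3p arms, listed miRNAs that passed and up to 3 abundant ones that did not, the cell type markers, and the 3 miRNAs most like each member. miR-132-3p was named outside it after its values were seen, as was the miR-7688-5p pattern in the closing observations. The edgeR fit was also run on counts simulated from its own means and dispersions, which does not check how well that model suits these data. RefSeq sequences matched all 3 members and their 3p arms.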

Additional observations from a re-analysis of the deposited data

How the results depend on the processing

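miR-146a-5p kept its direction and its call in all 14 alternatives, and leaving out 1 library gave log2 fold changes of 0.78 to 0.95. miR-146b-5p stayed uncalled and positive (0.11 to 0.45 when 1 library was left out, 0.22 to 0.29 otherwise). miR-155-5p stayed uncalled, with -0.081 to 0.17 when 1 library was left out. It turned to -0.081 without control library 3 (edgeR adjusted p = 0.697); the cause was not tested. The count of miRNAs called higher was 98, between 71 and 97 when 1 library was left out, and 60 at a mean of at least 10 CPM, where only 371 were tested. It was 91 to 106 with other scalings, DESeq2 or limma-voom and 121 with no filter. Of miRNAs called lower there were 81, and 55 to 82 when 1 library was left out. The ratio of miR-146a-5p to miR-146b-5p differed by 0.41 to 0.80 when 1 library was left out, that of the miR-146b arms by -0.53 to -0.20 and that of the miR-155 arms by -1.03 to -0.38. With a replicate block miR-146a-5p had a log2 fold change of 0.87 (adjusted p = 0.00421), 102 miRNAs were higher and 87 lower, and no member's call changed. Libraries with the same number did not clearly deviate together from their group means (r = 0.18, 0.11 and -0.22 for numbers 1, 2 and 3). Libraries with different numbers had r from -0.36 to 0.36. With 3 libraries per group these values can neither show nor exclude a pairing by number. The 3p arms had 1 to 64 counts where detected, which limits the precision of their values.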

Other observations

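miR-7688-5p, the miRNA most like miR-146b-5p, was near 0 in 3 libraries and well detected in the others. It had 634, 3 and 2 counts in control libraries 1, 2 and 3 and 743, 12 and 1565 counts in caNrf2 libraries 1, 2 and 3, or 61.1, 0.183, 0.0987, 52.1, 0.499 and 56.0 CPM. The 3 libraries in which it was well detected, 1 control and 2 caNrf2, are those with the highest miR-146b-5p (76.6, 76.7 and 79.9 CPM, against 47.8 to 61.7 CPM in the others). Because miR-7688-5p was picked as the closest of 370 miRNAs over these same libraries, that match largely restates the choice. Both genotypes have libraries of either kind, and miR-7688-5p was not called (edgeR adjusted p = 0.718). That rests on control library 1, without which it was called higher (adjusted p = 0.0169), and with no filter it was called too (9.36e-07). Its precursor lies on chromosome 10 and Mir146b on chromosome 19.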
